A study of Mus musculus with 6 samples.

Results

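The BCL2 family transcripts examined here were those of 10 genes that set the balance between survival and mitochondrial cell death, found by their gene symbols among the 22442 rows of a deposited RNA-seq table. They were 3 anti-apoptotic genes (Bcl2, Bcl2l1 and Mcl1), 2 effectors (Bax and Bak1) and 5 BH3-only genes (Bad, Bid, Bbc3, Pmaip1 and Bcl2l11), and all 10 were present. The cells were mTECs, mouse renal tubular epithelial cells that the paper describes as an immortalised line and the sample labels as magnetically sorted. All 6 libraries came from cells given LPS, bacterial lipopolysaccharide, at 20 μg/ml for 24 h, so that no library shows the cells without LPS, and the methods of the paper place a night in low serum before it. Beforehand, the cells of 3 libraries had been transfected with a negative control (labelled LPS) and those of 3 with an siRNA according to the labels (labelled LPSKD), while the paper's supplement lists an shRNA against mouse Stat3. The labels give no mouse strain, clone or passage, and they do not say whether the replicates were separate cultures, so that the p-values measure the spread between these libraries, which may be technical. The question put to the data was whether anti-apoptotic genes, among them the Stat3 targets Bcl2l1 and Mcl1, and pro-apoptotic genes differed between the 2 groups.

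In the intrinsic pathway of apoptosis, Bax and Bak1 encode the proteins that open pores in the outer mitochondrial membrane and let cytochrome c reach the cytosol. The proteins of Bcl2, Bcl2l1 (BCL-XL) and Mcl1 hold them in check, and BH3-only proteins either bind and block these guardians or activate the effectors directly. Stat3 is a transcription factor activated by cytokines, and Bcl2l1 and Mcl1 are textbook targets of it in many cell types. Loss of tubular cells through this pathway is a known feature of acute kidney injury. Much of the family's control lies in protein stability, phosphorylation, cleavage and location, which RNA does not show.

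The promoters of the 2 Stat3 targets are shown because they carry the sequence question, whether the letters of a Stat binding site lie close to a start site. RefSeq windows reaching from 250 bases before each start to 50 after it (assembly GRCm38.p6) matched 9 of the 10 genes in 15 windows. The spaced palindrome TTCNNNGAA, searched on both strands, which read alike, was in 8.3% of all 32851 windows and in 0 of the 15. The wider form TTCNNNNGAA was in 6.95% of all windows and in 1 of the 15, at an alternative start of Bcl2l1, where its first base lay at position −4 from the start. Capitals mark that match, and the sequences without capitals held neither form. The first sequence lies at chr2:152831729-152831978 on the minus strand, the second at chr2:152828484-152828739 on the minus strand and the last at chr3:95658471-95658720 on the plus strand.
Bcl2l1: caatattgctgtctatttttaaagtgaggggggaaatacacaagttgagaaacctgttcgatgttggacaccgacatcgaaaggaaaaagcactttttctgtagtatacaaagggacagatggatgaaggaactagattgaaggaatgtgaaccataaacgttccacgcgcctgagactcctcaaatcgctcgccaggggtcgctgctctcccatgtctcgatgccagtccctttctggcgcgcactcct
Bcl2l1, alternative start: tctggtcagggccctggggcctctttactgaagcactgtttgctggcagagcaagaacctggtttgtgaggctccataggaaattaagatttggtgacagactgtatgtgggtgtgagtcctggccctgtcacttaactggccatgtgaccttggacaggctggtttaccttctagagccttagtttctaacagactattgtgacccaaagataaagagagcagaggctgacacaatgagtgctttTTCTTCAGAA
Mcl1: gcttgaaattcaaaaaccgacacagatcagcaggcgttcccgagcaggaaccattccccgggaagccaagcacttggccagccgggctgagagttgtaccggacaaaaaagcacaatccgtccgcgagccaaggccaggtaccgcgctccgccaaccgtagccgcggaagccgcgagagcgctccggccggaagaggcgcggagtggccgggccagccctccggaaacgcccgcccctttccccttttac
A match in letters is a description of the sequence and does not show a bound site.

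The library totals behind the FPKM values, worked out from the deposited values, lay between 24084827 and 25422171 fragments. Fragments recovered for genes made up nearly all of them, 24846564 of 24888800 in replicate 1 of the LPS-labelled libraries. Sequencing depth, with fragments outside genes, is therefore not known from these totals. FPKM values, which scale the fragments of a gene to its length and to the size of the library, entered limma as log2(FPKM + 0.1). The fit covered 11723 genes whose FPKM averaged 0.5 or more, and p-values were adjusted over all of them by Benjamini and Hochberg. All 10 BCL2 family genes passed that minimum in both groups. Stat3, the targeted gene (ENSMUSG00000004040), had an FPKM of 34.6, 31.4 and 35.2 in LPS-labelled libraries, against 30.8, 35.2 and 34.3 in LPSKD-labelled ones. The groups overlapped, and the log2 fold change was −0.01 (standard error 0.07, 95% confidence interval −0.17 to 0.14, limma adjusted p = 0.944). The Stat3 transcript therefore did not separate the groups, and they are named by their labels throughout, LPS-labelled and LPSKD-labelled. The paper itself reports knockdown of Stat3 in mTECs by real-time PCR and western blot. Whether those measurements were made on the cells of these libraries is not given in the sources used here. Of 8 epithelial markers all had a mean FPKM of at least 1, with sums of 4713 to 4883 and 4663 to 4741 in the 2 groups, whereas of 6 proximal tubule markers Aqp1 alone did and Slc34a1 was listed at 0 in every library. Of 8 immune cell markers 3 reached that level (Cd68, Lyz2 and Csf1r), with sums of 58.6 to 65.1 and 61.6 to 74.9, and the pan-leukocyte gene Ptprc stood at 0.88 ± 0.202 (SD, n = 3) in LPS-labelled libraries and 0.818 ± 0.387 (SD, n = 3) in the others. Fibroblast markers reached a mean of 1 in 5 of 6 genes and endothelial ones in 2 of 4, with sums of 25 to 32.3 and 2.31 to 4.29 in the first group and 17.7 to 31.4 and 2.71 to 4.46 in the second. The renal lineage markers summed to 151 to 165 and 196 to 215, and the proximal tubule markers to 5.33 to 7.69 and 8.61 to 11.3, in both cases without overlap. Aqp1 made up most of the proximal tubule sum, with means of 4.33 and 8.34. The other proximal tubule markers tested, Cubn and Hnf4a, had overlapping groups and log2 fold changes of −0.012 and −0.255. Of the markers, 6 passed the adjusted threshold, with Pax2, Pax8, Aqp1, Cdh16 and Csf1r higher (log2 fold changes 0.61, 0.39, 0.93, 0.27 and 0.45) and Krt18 lower (−0.15) in LPSKD-labelled libraries. Among the markers tested, these were 2 of 8 epithelial, 1 of 3 proximal tubule, 2 of 3 renal lineage and 1 of 5 immune cell markers. Endothelial markers gave 0 of 2 and fibroblast markers 0 of 6, where 3.23% of all genes tested passed. Of the 5 immune cell markers tested, Csf1r alone had a log2 fold change above 0. The other 4 were below 0, and the median of the 5 was −0.184. Cd68 was among the 4, lower without overlap (log2 fold change −0.303, limma adjusted p = 0.197). The part of these shifts in any result below was not tested. In RNA from whole cultures, fewer cells of one kind and less RNA per cell cannot be told apart.

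None of the 3 anti-apoptotic transcripts passed the test. Bcl2l1 (ENSMUSG00000007659, GRCm38 chr2:152780668-152831728, minus strand), which encodes BCL-XL, was the most abundant member of the family in both groups. Its FPKM was 425, 412 and 438 in LPS-labelled libraries, against 441, 433 and 441 in LPSKD-labelled ones. The ranges overlapped, with the lowest value in replicate 2 of the first group. Their means came to 425 ± 13 (SD, n = 3) and 438 ± 4.87 (SD, n = 3), a log2 fold change of 0.045 (standard error 0.034, limma adjusted p = 0.543). The 95% confidence interval ran from a 2.18% decrease to an 8.83% increase, the narrowest among the 10 genes, on 7817 to 8548 fragments per library.

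Mcl1 (ENSMUSG00000038612, GRCm38 chr3:95658788-95663176, plus strand) encodes a short-lived guardian protein that is degraded by the proteasome. Its FPKM was 72.0, 78.5 and 78.5 in LPS-labelled libraries, against 71.3, 71.4 and 76.7 in LPSKD-labelled ones. The groups overlapped, since replicate 1 of the first group lay among the values of the other. The log2 fold change was −0.06 (standard error 0.05, limma adjusted p = 0.592), with a 95% confidence interval from −0.18 to 0.06.

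Bcl2 (ENSMUSG00000057329, GRCm38 chr1:106538178-106714274, minus strand), the founding member of the family, had the lowest level of the 10. Its FPKM was 12.5, 11.2 and 13.4 in LPS-labelled libraries, against 11.04, 8.71 and 11.7 in LPSKD-labelled ones. One library, replicate 2 of the latter group, was below all others, and the groups overlapped. With all 6 libraries the mean difference was the largest in size among the 10 genes, a log2 fold change of −0.24 (standard error 0.12), and it did not pass (unadjusted p = 0.082, limma adjusted p = 0.355). Without replicate 2 of the LPSKD-labelled libraries it was −0.115 and without replicate 3 of the LPS-labelled ones −0.183, in both cases smaller in size than that of Bad (0.135 and 0.208). The 95% confidence interval from −0.52 to 0.04 was the widest of the 10. Bcl2 rested on 153 to 238 fragments per library, for which counting alone gives a coefficient of variation of 6.7% and 7.25% in the 2 groups, beside observed values of 8.87% and 15%.

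Neither effector passed the test, and in both the replicates spread further than the groups stood apart. Bax (ENSMUSG00000003873, GRCm38 chr7:45461697-45466898, minus strand) had an FPKM of 112, 123 and 121 in LPS-labelled libraries, against 120, 118 and 114 in LPSKD-labelled ones. All 3 values of the second group lay within the range of the first, and the log2 fold change was −0.02 (standard error 0.04, 95% confidence interval −0.12 to 0.09, limma adjusted p = 0.896). Bak1 (ENSMUSG00000057789, GRCm38 chr17:27019810-27029009, minus strand) had an FPKM of 72.4, 70.4 and 72.6 in LPS-labelled libraries, against 76.5, 67.9 and 72.9 in LPSKD-labelled ones. The values of the first group lay within the range of the second, and the log2 fold change was 0.01 (standard error 0.05, 95% confidence interval −0.10 to 0.13, limma adjusted p = 0.944). Its sign turned to −0.003 under quantile normalisation.

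Among the BH3-only genes, Bad had groups that did not overlap. Bad (ENSMUSG00000024959, GRCm38 chr19:6941861-6951899, plus strand) encodes a sensitiser that binds BCL-XL and BCL-2 when survival kinases such as AKT do not phosphorylate it. Its FPKM was 21.6, 21.3 and 22.5 in LPS-labelled libraries, against 23.4, 26.6 and 24.6 in LPSKD-labelled ones. Every value of the second group was above every value of the first, with replicate 1 of the second group the closest to the first. Their means came to 21.8 ± 0.633 (SD, n = 3) and 24.8 ± 1.64 (SD, n = 3), a log2 fold change of 0.185 (standard error 0.064), or 13.7% with a 95% confidence interval from 2.71% to 25.9%. The unadjusted p was 0.0192 and the limma adjusted p was 0.186, so that Bad did not pass. The exact two-sided permutation test gave p = 0.1, the smallest that 3 libraries against 3 allow. Any gene whose groups do not overlap gets this value, Bbc3 included.

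Bbc3 (ENSMUSG00000002083, GRCm38 chr7:16308393-16318205, plus strand), which encodes PUMA, a p53-inducible protein that binds all the anti-apoptotic members, was the other gene whose groups did not overlap. Its FPKM was 24.0, 21.2 and 23.2 in LPS-labelled libraries, against 24.4, 25.1 and 25.1 in LPSKD-labelled ones. The gap between the groups was that between replicate 1 of the first and replicate 1 of the second. The log2 fold change was 0.13 (standard error 0.06, 95% confidence interval −0.02 to 0.27), which did not pass (unadjusted p = 0.0737, limma adjusted p = 0.338). It rested on 306 to 370 fragments per library.

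The other 3 BH3-only genes had overlapping groups. Bid (ENSMUSG00000004446, GRCm38 chr6:120891930-120916853, minus strand) encodes the protein that caspase-8 cleaves to link death receptors to mitochondria, and its FPKM was 103, 118 and 111 in LPS-labelled libraries, against 118, 112 and 111 in LPSKD-labelled ones. Its log2 fold change was 0.04 (standard error 0.055, limma adjusted p = 0.757). Pmaip1 (ENSMUSG00000024521), which encodes NOXA, a partner of MCL-1, had an FPKM of 65.1, 64.7 and 60.6 in the first group and 65.9, 53.04 and 62.6 in the second. Replicate 2 of the second group stood below the other 5 libraries, and the log2 fold change was −0.07 (standard error 0.08, limma adjusted p = 0.687). Bcl2l11 (ENSMUSG00000027381, GRCm38 chr2:128126038-128162547, plus strand), which encodes BIM, had an FPKM of 34.2, 33.5 and 31.0 in LPS-labelled libraries, against 32.1, 32.5 and 29.4 in LPSKD-labelled ones. Its log2 fold change was −0.07 (standard error 0.06, limma adjusted p = 0.624).

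**Figure D1:**
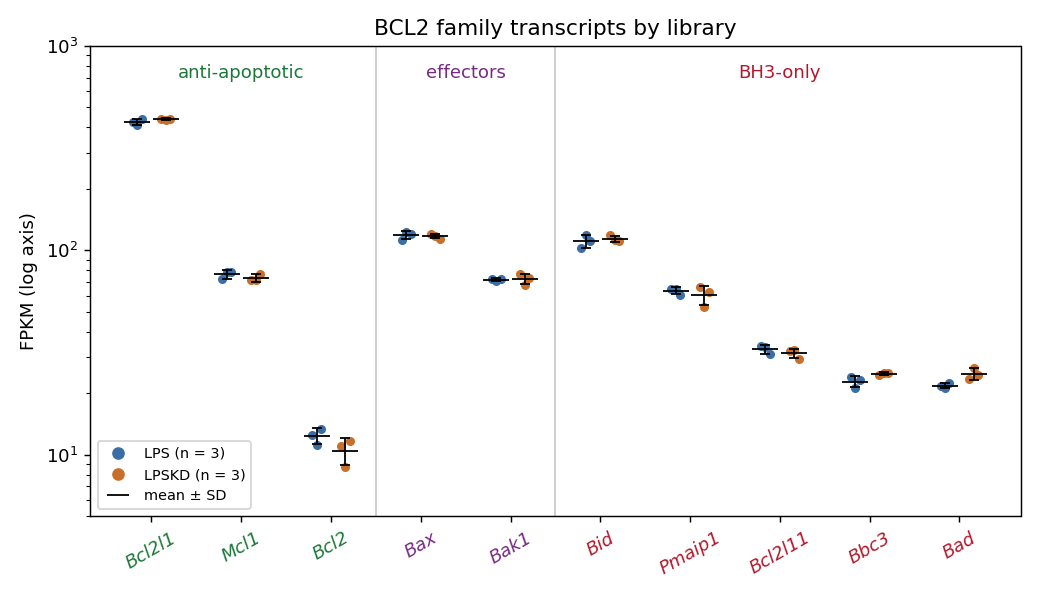
FPKM of the 10 BCL2 family genes on a log axis, ordered by role and level, with 1 point per library and bars for mean ± SD (n = 3 per group). Bcl2l1 stands between 412 and 441 and Bcl2 between 8.71 and 13.4, and the groups are apart only for Bad and Bbc3.

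Counted together, 0 of the 10 genes passed the adjusted threshold in either direction, where 379 of the 11723 genes tested (3.23%) did. At an unadjusted p under 0.05 the count was 1 of 10 (Bad), beside 17.6% of all genes tested. Groups that did not overlap were seen in 2 of 10 (Bad and Bbc3), beside 23.8% of all genes tested. When the recovered fragments were fitted with voom instead, 0 of the 10 passed, beside 5.09% of all genes. On 10 genes these shares lie near those of all genes tested, and nothing is read from them about the family. The log2 fold change was above 0 in 5 genes and below 0 in 5, with a median of −0.003 and a median size of 0.065, where all genes tested had medians of −0.008 and 0.09. By role, the median was −0.06 for the anti-apoptotic genes (from −0.24 to 0.05), −0.003 for the effectors and 0.04 for the BH3-only genes (from −0.07 to 0.19). The 95% confidence interval of each of the 10 excluded a doubling and a halving.

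**Figure D2:**
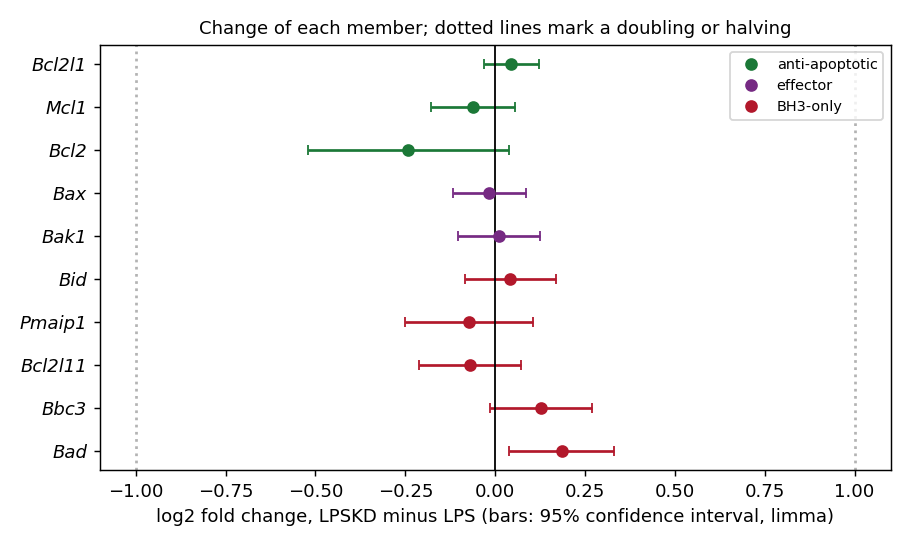
Log2 fold change of each gene in LPSKD-labelled relative to LPS-labelled libraries, with the 95% confidence interval from limma (3 against 3 libraries). The intervals cross 0 for 9 of the 10 genes, with Bad from 0.04 to 0.33 the exception before adjustment.

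The family spanned a wide range of levels, compared here per length as FPKM. In LPS-labelled libraries, the order was Bcl2l1, Bax, Bid, Mcl1, Bak1, Pmaip1, Bcl2l11, Bbc3, Bad and Bcl2. Neighbours whose replicate ranges overlapped, and whose order is therefore not set, were Bax and Bid, Mcl1 and Bak1, and Bbc3 and Bad. The same order and the same overlapping neighbours were found in LPSKD-labelled libraries. Bcl2l1 was 3.58-fold above Bax, the next gene, in the first group and 3.74-fold above it in the second. Over all 6 libraries, Bcl2l1 ranked 239th of the 11723 genes tested, above 98% of them, whereas Bcl2 was above 34.5%. Bax and Bid were above 89.9% and 89.3% of genes, and Mcl1 and Bak1 above 82.6% and 82%. Bad and Bbc3 were close to the middle, above 52.2% and 52.8%. Levels between genes depend on the gene length used. With the longest single coding sequence in place of the merged coding length, a choice made after the data were seen, the mean of Bad in LPS-labelled libraries moved from 21.8 to 33.3 and that of Bak1 from 71.8 to 84.9. Bad then stood above Bbc3 and Bak1 above Mcl1, and Bcl2l1 stayed the highest at 463. In LPSKD-labelled libraries Bad (37.9) then also stood above Bcl2l11 (34.5), so that with this length the groups did not share 1 order. Whether fragments in untranslated parts were counted is not given in the sources used here.

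The balance within a library was described by ratios, with no test. The summed FPKM of the 3 anti-apoptotic genes divided by that of the 7 pro-apoptotic genes was 1.178, 1.11 and 1.199 in LPS-labelled libraries, against 1.137, 1.179 and 1.204 in LPSKD-labelled ones. Their means came to 1.16 ± 0.0466 (SD, n = 3) and 1.17 ± 0.0339 (SD, n = 3), and the groups overlapped. Bcl2l1 made up most of the numerator, between 82.1% and 83.4% of the anti-apoptotic FPKM in the first group and between 83.3% and 84.4% in the second. With geometric means, which weigh each gene alike, the ratio was 1.43 ± 0.0636 (SD, n = 3) and 1.32 ± 0.0838 (SD, n = 3), a log2 difference of −0.115 in place of 0.01, with groups that still overlapped. The sign of the balance thus turned with the way the genes were weighed, and that of the summed ratio turned with single libraries, to −0.019 without replicate 2 of the LPS-labelled and −0.005 without replicate 3 of the LPSKD-labelled ones. The ratio of Bcl2 and Mcl1 without Bcl2l1 to the 7 pro-apoptotic genes was 0.196, 0.198 and 0.208 in LPS-labelled libraries, against 0.179, 0.184 and 0.201 in LPSKD-labelled ones, which also overlapped.

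Single pairs of partners gave the same picture of overlap, with an exception. Bcl2l1 over Bax was 3.78, 3.36 and 3.63 in LPS-labelled libraries, against 3.68, 3.68 and 3.87 in LPSKD-labelled ones. Bax over Bcl2 was 8.98, 10.98 and 9.04 in the first group and 10.9, 13.5 and 9.75 in the second, highest in the library with the fewest Bcl2 fragments. Mcl1 over its partner Pmaip1 was 1.107, 1.213 and 1.296 in the first group and 1.082, 1.347 and 1.226 in the second. Bcl2l1 over Bad was 19.6, 19.4 and 19.5 in LPS-labelled libraries, against 18.9, 16.3 and 17.96 in LPSKD-labelled ones, without overlap. The share of Bcl2 in the anti-apoptotic FPKM did not overlap either, with 2.23% to 2.52% in the first group and 1.7% to 2.21% in the second. These ratios reuse the values of the genes above and add no independent measurement.

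**Figure D3:**
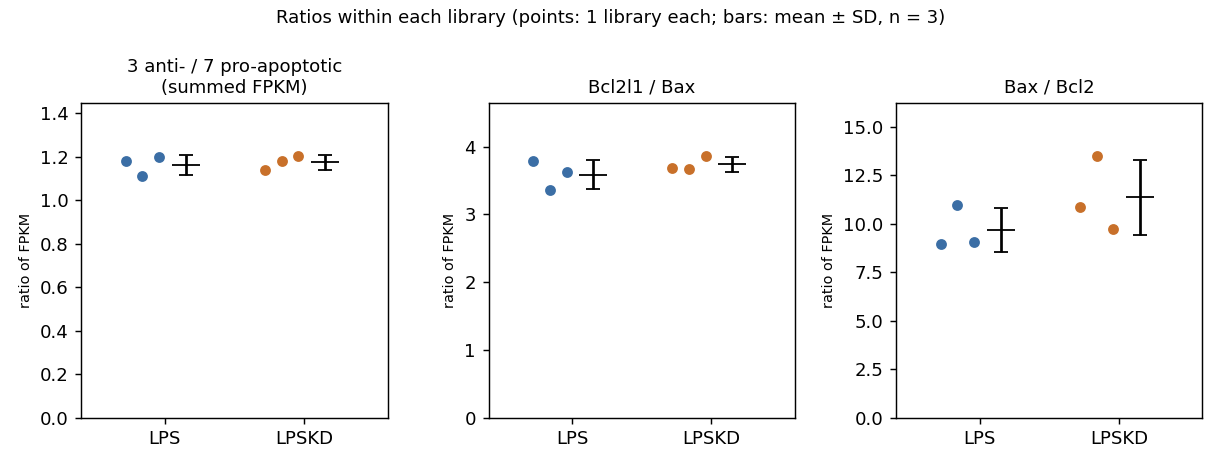
FPKM ratios within each library, from axes that start at 0, with points for the libraries and bars for mean ± SD (n = 3 per group). The summed ratio lies between 1.11 and 1.204, Bcl2l1 over Bax between 3.36 and 3.87 and Bax over Bcl2 between 8.98 and 13.5, and the groups overlap in all 3 panels.

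The wider family and its neighbours were described with lists of related genes. Of 15 other BCL2 family genes, 9 were tested, with a median log2 fold change of 0.06. By limma or by voom 0 passed the adjusted threshold, beside 3.23% and 5.09% of all genes tested. At an unadjusted p under 0.05 there were 3 of 9, beside 17.6% of all genes tested, named after their values were seen. Bok, a relative of the effectors, had a mean FPKM of 57.3 and 66.2 in the 2 groups (log2 fold change 0.21, limma adjusted p = 0.103), and passed without replicate 1 of LPS-labelled libraries (adjusted p = 0.0493). Bnip3, a mitophagy receptor, had means of 18.5 and 21.5 (limma adjusted p = 0.182), and Bcl2l15 had means of 9.26 and 7.2 (limma adjusted p = 0.163). Bcl2l10 and Hrk were listed at 0 in every library. The near-identical copies Bcl2a1a, Bcl2a1b and Bcl2a1d, of which Bcl2a1a had 3 to 19 fragments per library, may share fragments, and their values are uncertain. Bcl2l2, which encodes the guardian BCL-W, stood at 2.27 ± 0.147 and 2.46 ± 0.393 (SD, n = 3 each).

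Of 20 genes of the apoptosome, the caspases and their inhibitors, 19 were tested, with a median log2 fold change of −0.02. Most of the 20 act after the mitochondrial pores open. With limma 0 passed, beside 3.23% of all genes tested, and with voom 1 passed, beside 5.09%. At an unadjusted p under 0.05 there were 2 of 19, beside 17.6% of all genes tested, of which Apaf1 is given here, named after its values were seen. Apaf1, the scaffold of the apoptosome, had means of 27.0 and 24.1 (limma adjusted p = 0.158). Cycs, which encodes cytochrome c, stood at 386 ± 46.8 and 399 ± 17.3 (SD, n = 3 each), and Xiap, a caspase inhibitor, at 27.1 ± 2.2 and 28.8 ± 1.11 (SD, n = 3 each).

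Of 16 other genes of the p53 pathway, which is known to induce Bax, Bbc3 and Pmaip1, all 16 were tested. Of these, 1 passed, in the lower direction, beside 3.23% of all genes tested. Mdm2, the ubiquitin ligase that degrades p53 and is itself a p53 target, had an FPKM of 266, 259 and 258 in LPS-labelled libraries, against 205, 196 and 189 in LPSKD-labelled ones. The groups were far apart relative to their spread, and the log2 fold change was −0.41 (standard error 0.04, limma adjusted p = 0.00128). Mdm2 passed under every alternative that was run, with an adjusted p of at most 0.0282. Of the 16 genes, 12 had a log2 fold change below 0 and 4 above, with a median of −0.05, where 6154 of all 11723 genes tested were below 0. At an unadjusted p under 0.05 there were 6 of 16, beside 17.6% of all genes tested, Trp53 higher and Mdm2, Ccng1, Sesn2, Tnfrsf10b and Perp lower. Trp53 itself had means of 233 and 245 (limma adjusted p = 0.265), and Cdkn1a, the p21 gene and a classical p53 target, 490 ± 7.89 and 480 ± 17.6 (SD, n = 3 each). Ccng1, with means of 451 and 407 (limma adjusted p = 0.111), passed with quantile normalisation (adjusted p = 0.0139), with voom (adjusted p = 0.0449) and without replicate 1 of LPS-labelled libraries (adjusted p = 0.0184).

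Of 18 known regulators of MCL-1 stability or of BH3-only genes and proteins, 17 were tested, with a median log2 fold change of −0.02. Of these, 1 passed in the higher and 1 in the lower direction and 15 did not, beside 3.23% of all genes tested that passed. At an unadjusted p under 0.05 there were 3 of 17, beside 17.6% of all genes tested. Groups that did not overlap were seen in 7 of 17, beside 23.8%. Sfn encodes 14-3-3 sigma, of the protein family that holds phosphorylated BAD in the cytosol. Sfn rose from a mean FPKM of 60.7 ± 2.04 (SD, n = 3) to 76.2 ± 3.22 (SD, n = 3), a log2 fold change of 0.33 (standard error 0.05, limma adjusted p = 0.00813), and its adjusted p was 0.0616 without the trend in eBayes. Foxo1, a transcription factor that drives Bcl2l11 and Bbc3 in several cell types, fell from 29.9 ± 0.682 (SD, n = 3) to 24.4 ± 1.56 (SD, n = 3), a log2 fold change of −0.30 (standard error 0.06, limma adjusted p = 0.0396). The call of Foxo1 was lost under several alternatives, among them no filter, no trend and the omission of any library, when its adjusted p lay between 0.0602 and 0.121. Ddit3, named after its values were seen, had means of 124 and 108 without overlap (log2 fold change −0.20, limma adjusted p = 0.0911) and did not pass. The ubiquitin ligase Huwe1, which targets MCL-1, stood at 92.1 ± 3.46 and 91.0 ± 2.9, and the deubiquitinase Usp9x, which stabilises it, at 90.6 ± 3.67 and 92.1 ± 1.254 (SD, n = 3 each).

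Of 10 genes that textbooks list as Stat3 targets, other than Bcl2l1 and Mcl1, all 10 were tested, with a median log2 fold change of 0.02. With limma or with voom 0 passed, beside 3.23% and 5.09% of all genes tested. At an unadjusted p under 0.05 there were 2 of 10, beside 17.6% of all genes tested, again named after their values were seen. Vegfa, the endothelial growth factor, had means of 92.5 and 81.9 (log2 fold change −0.18, limma adjusted p = 0.09) and passed without replicate 1 of LPS-labelled libraries (adjusted p = 0.0311). Muc1, a membrane mucin, had means of 3.51 and 5.04 with overlapping groups (limma adjusted p = 0.222). Socs3, the feedback inhibitor that Stat3 induces, stood at 6.79 ± 0.674 and 7.11 ± 1.14 (SD, n = 3 each), and Birc5, which encodes survivin, at 156 ± 7.81 and 162 ± 2.12 (SD, n = 3 each).

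**Figure D4:**
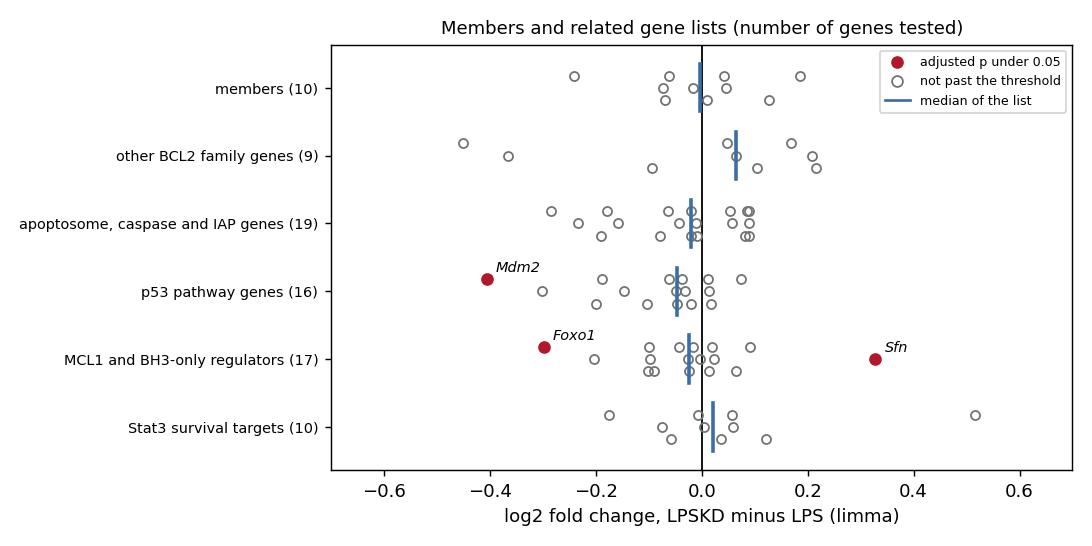
Log2 fold change of the 10 BCL2 family genes (row "members") and of 5 lists of related genes, with 1 circle per gene tested, filled where the limma adjusted p is under 0.05, and a vertical line at each list's median. Only Mdm2 at −0.41, Foxo1 at −0.30 and Sfn at 0.33 are filled, and the medians lie between −0.05 and 0.06.

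The genes whose values followed those of the 2 Stat3 targets most closely over the 6 libraries are given as a description, since 6 points shared by all genes leave room for many high correlations. For Bcl2l1, they were Slc15a4 (Pearson r = 0.9963), Gpr107 (0.9933) and Cdk18 (0.993), and 29 of 11722 genes had an r of at least 0.95. For Mcl1, they were Fastkd2 (0.9836), Saal1 (0.9796) and Rock1 (0.9765), with 20 genes at that level or above. Slc15a4, for example, had an FPKM of 14.7, 13.4 and 16.1 in LPS-labelled libraries, against 16.7, 15.9 and 16.7 in LPSKD-labelled ones, lowest in the same library as Bcl2l1. None of these 6 genes passed the adjusted threshold, with limma adjusted p between 0.305 and 0.716.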

How the data were processed

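The study comprises poly(A) RNA-seq of mTECs in 6 libraries, grouped by the sample labels as 3 LPS and 3 LPSKD. The authors deposited FPKM values, 1 per gene and library, with no pooling. The submitters' processing notes name Bowtie 0.12.2, HISAT2 2.0 and StringTie 1.3.0 and the builds mm8 and GRCh38.p13, with no role, and neither build is the one used here. The gene models and filters behind the values are not given in the sources used here. Gene symbols and positions came from GENCODE M21 (GRCm38), which matched 22399 of 22442 identifiers.

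The values were turned back into fragments with the merged coding lengths of GENCODE M21 and the library totals that gave whole numbers. Of 16837 genes above 0, 16460 (97.8%) were whole within 0.01 at that length or up to 10 bases more, 372 at a length found by search and 5 were not whole. Totals raised by 0.1% gave whole numbers for 2.08% of genes over 30 fragments. Intervals from fragments cover counting error only.

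Tests used limma 3.58.1 in R 4.3.3 (lmFit, eBayes with trend, two-sided) on log2(FPKM + 0.1) for genes averaging 0.5 FPKM or more, with no covariate, with Benjamini-Hochberg adjustment at 0.05. Fold changes on this scale understate those of low genes. Exact permutation tests ran over the 20 assignments of labels. The fit was tested on simulated data. Other steps used Python 3.11.15, numpy 2.4.6, pandas 2.3.3 and matplotlib 3.10.9. Alternatives were pseudocounts of 1 and 0.01, filters at 1 and 0.1 and none, quantile normalisation, median centring, no trend, a replicate block, voom on the fragments, each library left out, and another gene length added after the data were seen. The 10 genes and the lists were chosen with earlier results of these data known. Named genes were the 10, Stat3, up to 3 passing genes per direction and list, and the 3 closest correlates of Bcl2l1 and Mcl1. By exception, some list genes with an unadjusted p under 0.05 were named after their values were seen, and the remaining list genes were named for their role. Ddit3 has 2 identifiers, of which the lower was used. The ChIP-seq and animal data were not analysed here. 1 gene of the apoptosome list is counted but not reported here by name.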

Additional observations from a re-analysis of the deposited data

How the results depend on the processing

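None of the 10 BCL2 family genes passed under any of the 10 alternatives with all 6 libraries or with any library left out. Over all genes, 379 calls became 266 without a filter, 140 without trend, 213 with the replicate block and 597 with voom. They lay between 158 and 356 with a library left out. Other BCL2 family genes gave 0 to 1 calls with a library left out (1 without LPS replicate 1), as did the 10 textbook Stat3 targets (0 to 1, likewise). Quantile normalisation and voom gave 1 call in the apoptosome list and 2 in the p53 list, which had 1 to 2 with a library left out (2 without LPS replicate 1). Regulators gave 1 call without a filter, 0 without trend, 1 with the replicate block (Foxo1 was lost, adjusted p = 0.0877) and 1 whichever library was left out. With a library left out, the log2 fold change spanned −0.06 to 0.04 (−0.064 to 0.044) for Stat3, −0.326 to −0.115 for Bcl2, −0.055 to 0.009 for Bax, −0.03 to 0.056 for Bak1, −0.012 to 0.091 for Bid and −0.138 to 0.018 for Pmaip1. Bak1 was −0.003 with quantile normalisation. The log2 difference of the summed balance was 0.014, −0.115 with geometric means and −0.019 to 0.037 with a library left out. The cause of these shifts was not tested.

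Whether the replicate numbers pair the libraries is not known. Same-numbered libraries had correlations of −0.016, −0.004 and −0.043 between their deviations from the group means. No library correlated best with its own number, and the highest correlation of any pair was 0.058. Centring on the group means ties these correlations together, so they cannot exclude a shared source. The replicate block, with 213 calls, used the numbers as labelled. The lowest depth behind a member was that of Bcl2, with 153 fragments.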
